A study of Mus musculus with 10 samples.

Results

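The 7 genes Irf4, Irf8, Spib, Spi1, Ets1, Batf and Ciita were described in mouse plasma cells and naive B cells. They were chosen by symbol as interferon regulatory factors, their ETS and AP-1 partners and Ciita, and all 7 were found among the 26434 gene symbols of the RNA tables. RNA-seq, ATAC-seq (open chromatin) and TCC (tethered conformation capture, a map of chromosome contacts) each gave 1 plasma and 1 naive library, 6 of the 10 samples of the series. The H3K36me3 and H3K4me2 samples were not analysed here.

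All cells came from C57BL/6 mice. Plasma cells for ATAC-seq were labelled as B220- cells sorted from wild-type bone marrow with CD138 as the positive marker. The labels of the plasma RNA library disagree: its source field gives cells activated in culture, and its extraction protocol gives the bone marrow sort, in wild-type mice. For the plasma TCC library, from Blimp-GFP mice (a reporter of the plasma cell factor Blimp-1), the source field gives ex vivo cells, while the protocol gives CD23+ spleen cells stimulated for 3 days with 10 µg/ml of the bacterial product LPS and sorted for GFP. Naive B cells were wild type, sorted from spleen as CD23+ IgD+ cells for RNA-seq and ATAC-seq and purified with beads against CD23 for TCC. No difference could be tested with a lone library per group, and every interval below covers counting error only.

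The interferon regulatory factors IRF4 and IRF8 bind DNA weakly alone. They are recruited to composite sites by an ETS factor, PU.1 (the product of Spi1) or Spi-B, or by BATF with a JUN protein. IRF4 is required for plasma cell formation, where its level is known to set which sites it occupies. CIITA, the master activator of MHC class II genes, and Spib are known targets of repression by Blimp-1.

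RNA levels are given in TPM, read abundance corrected for transcript length and scaled to the same sum in each library, added up over the transcripts of a gene. The log2 ratio of plasma over naive TPM was taken with a pseudocount of 1 TPM. It was centred on its median, -0.99, over the 7488 genes that reached 5 TPM in the plasma and the naive library alike. The pseudocount pulls the uncentred ratio of low genes toward 0, which becomes 0.99 after centring, close to the limit for a call. A gene was called higher or lower at a centred change of at least 2-fold with at least 5 TPM in 1 library. The intervals of the ratio of counts belong to a separate log2 ratio of estimated counts. It has no pseudocount and was centred on its own median, -0.37, so the centred TPM ratio can lie outside the interval. Of the 7 members, 2 were called higher in plasma cells (Irf4 and Batf), against 16.0% of the 10191 genes that met the minimum. A further 3 members were called lower (Spib, Ets1 and Ciita), against 22.0% of those genes. All 7 members met the minimum. Their median centred ratio was -0.68, against -0.23 over all genes that met the minimum. Without centring, 2 members were higher and 4 lower, against 7.75% and 57.6% of genes.

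**Figure D1:**
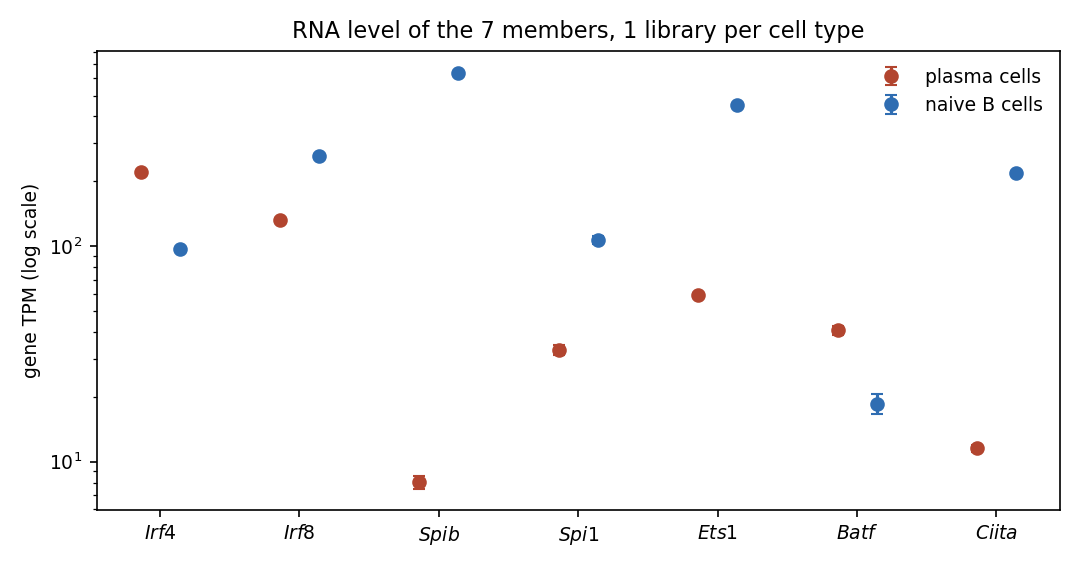
RNA level in TPM (log axis) of the 7 members in the plasma library (left of each pair) and the naive B library (right), with 95% Poisson intervals on the estimated counts. Irf4 and Batf sat higher in plasma cells, and the other 5 sat lower on the uncentred TPM scale shown, with the widest gap at Spib (8.00 TPM in plasma cells and 639 TPM in naive B cells).

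The balance of both IRF members was turned round, while their sum was nearly equal in uncentred TPM only. Irf4 had 221 TPM in plasma cells and 96.6 TPM in naive B cells, from 40867 and 9456 estimated counts. Its centred log2 ratio was 2.17, above 93.2% of genes, and its centred ratio of counts was 2.25, with an interval from 2.22 to 2.28. Irf8, which is known for opposing IRF4 in B cell fate, had 133 TPM in plasma cells and 263 TPM in naive B cells. Its centred ratio was 0.01, above 58.4% of genes, and the interval of its ratio of counts ran from -0.00 to 0.07. Whether Irf8 was lower therefore depends on the scale: in TPM it was 0.505 times as high in plasma cells as in naive B cells, and after centring it lay close to the typical gene. Irf4 and Irf8 together, in uncentred TPM, had 353.7 TPM in plasma cells and 359.4 TPM in naive B cells. Irf4 made up 62.5% of that sum in plasma cells and 26.9% in naive B cells. On the uncentred scale the typical gene had a log2 ratio of -0.99, so the sums were not nearly equal after centring.

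The Irf4 messages came from both annotated transcripts, which differ by 1 codon. Irf4-001 has a coding sequence of 1353 bases and Irf4-002 one of 1350. The reference transcripts Irf4-201 and Irf4-202 of the GENCODE vM21 set (GRCm38) have the same identifiers and coding lengths, and their alignment places the 3 extra bases at positions 490 to 492 of the coding sequence, codon 164, or at an equivalent place in the same repeat. The extra CAG, a glutamine codon, is in capitals in the sense strand around the difference, which is shown because it is all that separates the products:
Irf4-001: tctctgccagccCAGcaggttcataac
Irf4-002: tctctgccagcccaggttcataac
Irf4-001 had 145.3 TPM in plasma cells and 58.8 TPM in naive B cells, and Irf4-002 had 75.7 TPM in plasma cells and 37.9 TPM in naive B cells. The longer form was 65.7% of Irf4 TPM in plasma cells and 60.8% in naive B cells. By estimated counts its share was 65.8% (65.3 to 66.2) in plasma cells and 60.8% (59.8 to 61.8) in naive B cells. These Clopper-Pearson intervals leave out the error of dividing reads between nearly identical transcripts.

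The ETS partners Spib and Spi1 differed widely in the size of their change. Spib, which encodes Spi-B, had 8.00 TPM in plasma cells and 639 TPM in naive B cells, where it ranked 193 among all genes by TPM. Its centred ratio was -5.16, lower than in 99.9% of genes, and its centred ratio of counts was -5.26, with an interval from -5.36 to -5.17. Spi1, listed in the files under its older symbol Sfpi1, had 33.0 TPM in plasma cells and 107 TPM in naive B cells, with a centred ratio of -0.68 that missed the 2-fold limit. Without centring Spi1 was called lower, at -1.67. Spib was at 0.242 times the TPM of Spi1 in plasma cells and at 5.97 times in naive B cells, so the order of this pair was opposite in the 2 libraries. The sum of Spib and Spi1 was 41.0 TPM in plasma cells and 746 TPM in naive B cells. On the same uncentred scale the sums of Irf4 and Irf8 were nearly equal.

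Spi1 is also highly expressed in myeloid cells, and Irf8 in myeloid and dendritic cells. Of 8 myeloid markers, 5 met the minimum and all 5 were called lower in plasma cells, against 22.0% of all genes that met it. The 8 markers summed to 1.99 TPM in plasma cells and 145 TPM in naive B cells, where Lyz2 had 55.2 and Csf1r 42.5 TPM. In the plasma library, 7 of the 8 were under 1 TPM and Elane was at 0. Of 6 dendritic cell markers, Clec9a was at 0 in plasma cells, 4 were under 1 TPM there, and Flt3 had 30.2 TPM in plasma cells and 2.50 TPM in naive B cells. The summed dendritic level was 31.6 TPM in plasma cells and 10.5 TPM in naive B cells. Without Flt3 the other 5 summed to 1.43 TPM in plasma cells and 7.98 TPM in naive B cells. In bulk libraries, fewer cells of a type and less RNA per cell cannot be told apart, and the part of these cells in the Spi1 and Irf8 values was not tested.

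Among the isoforms, Spib was the only member whose leading transcript by TPM differed between the libraries, by a lead in plasma cells within counting error. Spib-203, which has the shortest coding sequence of the 3, was 35.4% of Spib TPM in plasma cells and 22.7% in naive B cells. Spib-201 was 33.8% in plasma cells and 45.5% in naive B cells. Spib-202, with 858 coding bases, was 30.8% in plasma cells and 31.8% in naive B cells. By counts, Spib-203 held 35.0% (31.8 to 38.2) of 870 counts in plasma cells, where Spib-201 held 33.7% (30.5 to 36.9), and 22.4% (22.0 to 22.8) of 36851 counts in naive B cells. All 3 Spib transcripts were lower in plasma cells, with centred ratios of -5.31 for Spib-201, -4.90 for Spib-202 and -4.26 for Spib-203.

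Irf8 came mostly from Irf8-001, which held 96.1% of its counts in plasma cells and 96.8% in naive B cells, with 110 TPM in plasma cells and 226 TPM in naive B cells. The fragment Irf8-004, of 597 bases, held 15.4% of Irf8 TPM in plasma cells and 13.2% in naive B cells, but 3.49% and 2.91% of its counts in those libraries, because TPM divides by length. Irf8-005 had 1.74 TPM in plasma cells and 1.60 TPM in naive B cells. For Spi1, the short Sfpi1-003 of 544 bases held 53.1% of TPM in plasma cells and 57.0% in naive B cells. The full-length Sfpi1-001 led by counts, with 66.8% in plasma cells and 69.9% in naive B cells. Sfpi1-002 had 4.92 TPM in plasma cells and 7.54 TPM in naive B cells.

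The promoters of Irf4, Irf8 and Spib are shown because the order of Irf4 and Irf8 and of Spib and Spi1 by TPM was opposite in the 2 libraries. They are the 250 bases before the annotated start on the sense strand, from RefSeq (GRCm38.p6), with the TATAAA box in capitals where it is found. The table matched 4 of the 7 members, Irf4, Irf8, Spib and Batf. Of the 2 start sites listed for Irf8, the first is printed.
Irf4, chr13:30748983-30749232, plus strand: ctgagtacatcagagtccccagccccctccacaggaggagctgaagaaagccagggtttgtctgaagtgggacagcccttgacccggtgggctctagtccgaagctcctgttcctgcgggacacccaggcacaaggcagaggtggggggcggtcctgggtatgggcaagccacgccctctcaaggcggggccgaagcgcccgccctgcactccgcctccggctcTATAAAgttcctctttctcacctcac
Irf8, chr8:120736108-120736357, plus strand: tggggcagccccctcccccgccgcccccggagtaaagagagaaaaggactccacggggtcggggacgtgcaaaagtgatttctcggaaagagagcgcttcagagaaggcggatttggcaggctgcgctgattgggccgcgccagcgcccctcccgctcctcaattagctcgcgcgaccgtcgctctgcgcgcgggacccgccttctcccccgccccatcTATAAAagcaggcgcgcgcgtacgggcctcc
Spib, chr7:44532072-44532321, minus strand: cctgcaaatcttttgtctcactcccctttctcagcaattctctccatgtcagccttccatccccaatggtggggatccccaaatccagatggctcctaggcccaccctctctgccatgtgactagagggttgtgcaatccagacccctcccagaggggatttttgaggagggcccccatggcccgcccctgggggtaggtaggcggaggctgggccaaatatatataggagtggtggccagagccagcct
Both strands were searched for the ETS-IRF composite letters GGAANNGAAA, found in 2.30% of 32851 promoters of this length, their wider form GGAANNNGAAA (2.33%), the interferon response letters GAAANNGAAA (2.98%), the AP-1 letters TGANTCA (6.75%) and the AP-1-IRF composite TGANTCANNNNGAAA (0.0974%). None of these letters was found in the windows of Irf4, Irf8, Spib or Batf. The TATAAA letters lay 26 to 21 bases before the start of Irf4 and 31 to 26 bases before that of Irf8, and 12.4% of promoters hold them. The ETS core GGAA, which is also part of the ETS-IRF letters and is in 93.4% of promoters, was found 2 times in the Irf4 window, 1 time in each of the Irf8 and Spib windows shown and 4 times in that of Batf.

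Ets1, a founding member of the ETS family that restrains plasma cell differentiation in mice, had 59.6 TPM in plasma cells and 450 TPM in naive B cells. Its centred ratio was -1.91, and its centred ratio of counts was -1.86, with an interval from -1.89 to -1.83. Ets1-201 held 91.9% of its TPM in plasma cells and 95.2% in naive B cells. Ets1-202, which lacks part of the coding sequence (1062 against 1323 bases), held 7.10% in plasma cells and 3.56% in naive B cells, at 4.23 and 16.0 TPM. Ets1-203 had 0.367 TPM in plasma cells and 4.65 TPM in naive B cells. T cells also express Ets1. Of 10 T and NK cell markers, 5 met the minimum and all 5 were called lower, against 22.0% of all genes that met it. The list summed to 3.70 TPM in plasma cells and 100.4 TPM in naive B cells. Cd3e, Trbc1, Trbc2 and Ncr1 were at 0 in plasma cells, and Lck had 2.49 TPM in plasma cells and 46.0 TPM in naive B cells. The part of T cells in the Ets1 value was not tested.

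Across the ETS family, 26 of 27 listed genes were found and 17 met the minimum. Of these, 6 were called lower in plasma cells and 1 higher, against 22.0% and 16.0% of all genes that met the minimum. Next to Spib and Ets1, the lower genes were Spic (2.53 TPM in plasma cells, 42.5 TPM in naive B cells), a relative of Spib and Spi1, Elf4 (7.76 and 78.7 TPM) and Elf2 (14.3 and 75.3 TPM), each with the plasma level first, and Fli1, with a centred ratio of -1.30. The myeloid markers given above summed higher in the naive library, and the part of such cells in the Spic value was not tested. Of the genes tested, only Ets2 was called higher, at 15.0 TPM in plasma cells and 13.7 TPM in naive B cells, a call that rests on the centring. Elk4, at 64.6 TPM in plasma cells and 118 TPM in naive B cells, was the most abundant ETS gene of the plasma library, a place that Spib held in naive B cells. The rest lay between centred ratios of -0.86 and 0.82: Elf1, Etv3, Spi1, Elk1, Erf, Elk3, Elk4, Gabpa, Etv6 and Etv5.

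Within the IRF family, 2 of the 8 genes that met the minimum were called higher in plasma cells and 2 lower. Of all genes that met the minimum, 16.0% were called higher and 22.0% lower, so these counts are near those shares. Irf7, which drives type I interferon genes, had 49.5 TPM in plasma cells and 43.1 TPM in naive B cells, a centred ratio of 1.18 that, like the call of Ets2, rests on the centring. Irf5 had 45.3 TPM in plasma cells and 246 TPM in naive B cells, and Irf3 25.8 TPM in plasma cells and 133 TPM in naive B cells. Irf1, Irf2 and Irf9 had centred ratios of -0.73, -0.71 and -0.87. Irf4 had the highest TPM of these 8 in plasma cells, while in naive B cells only Irf7 was below it. Of 5 proteins known to bind IRF factors, Swap70 (88.8 TPM in plasma cells, 376 TPM in naive B cells), Irf2bp2 (3.66 and 25.7 TPM) and Irf2bpl (4.91 and 30.5 TPM) were called lower in plasma cells. Def6, a relative of Swap70, had 38.0 TPM in plasma cells and 62.3 TPM in naive B cells.

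The BATF and AP-1 genes that met the minimum were higher in plasma cells. Batf, a leucine zipper factor that pairs with JUN proteins and recruits IRF4, had 40.6 TPM in plasma cells and 18.5 TPM in naive B cells, from 1458 and 352 counts. Its centred ratio was 2.08, above 92.8% of genes, with an interval of the ratio of counts from 2.02 to 2.36. All 6 of these genes were called higher in plasma cells, against 16.0% of all genes that met the minimum. Fos had 270 TPM in plasma cells and 3.70 TPM in naive B cells, Fosb 53.9 and 1.74 TPM, Jun 109.6 and 7.49 TPM, Junb 196.7 and 47.0 TPM, and Jund 227 and 102 TPM, each with the plasma level first. The median of the list was 3.03, against -0.13 over all genes with at least 1 TPM in 1 library. Batf3, which can stand in for Batf in some cells, had 4.23 TPM in plasma cells and 1.29 TPM in naive B cells, under the minimum. Batf2, Fosl1 and Fosl2 were under 1 TPM in both libraries.

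Ciita was called lower in plasma cells. It had 11.5 TPM in plasma cells and 220 TPM in naive B cells, with a centred ratio of -3.15, lower than in 98.4% of genes. The interval of its ratio of counts ran from -3.24 to -3.11. Ciita-201 held 97.4% of its TPM in plasma cells and 94.1% in naive B cells. Ciita-202, with the longest coding sequence (3468 bases), was at 0 in plasma cells and at 1.00 TPM in naive B cells, and Ciita-204 had 0.185 TPM in plasma cells and 7.08 TPM in naive B cells. Ciita-206, annotated as a gene of its own under the same symbol, had 0.112 TPM in plasma cells and 4.52 TPM in naive B cells.

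Of 10 MHC class II genes, 8 were called lower in plasma cells and none higher, against 22.0% of all genes that met the minimum called lower. The median ratio of the 10 was -2.12. H2-Oa, which restrains peptide exchange, had 11.5 TPM in plasma cells and 405 TPM in naive B cells. H2-DMb2, a subunit of the exchange factor, had 92.5 TPM in plasma cells and 1235 TPM in naive B cells, and H2-DMb1 30.5 and 360 TPM in that order. H2-Ob had 106.8 TPM in plasma cells and 1107 TPM in naive B cells. The other 4 genes called lower, H2-Eb2, H2-DMa, H2-Aa and H2-Eb1, had centred ratios of -2.20, -2.04, -1.51 and -1.09. The invariant chain gene Cd74, at 4370 TPM in plasma cells and 15217 TPM in naive B cells, and H2-Ab1, at 909.7 and 3582 TPM, missed the 2-fold limit, at -0.81 and -0.99. Of the 7 RFX, NF-Y and CREB genes whose products hold CIITA at promoters, Rfx5 (10.1 TPM in plasma cells, 85.1 TPM in naive B cells) and Creb1 (8.18 and 38.4 TPM) were called lower. The other 5 were not called, with centred ratios between -0.73 (Nfya) and 0.50 (Rfxap). With 2 of 7 called lower, this list was near the share of 22.0% over all genes.

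**Figure D2:**
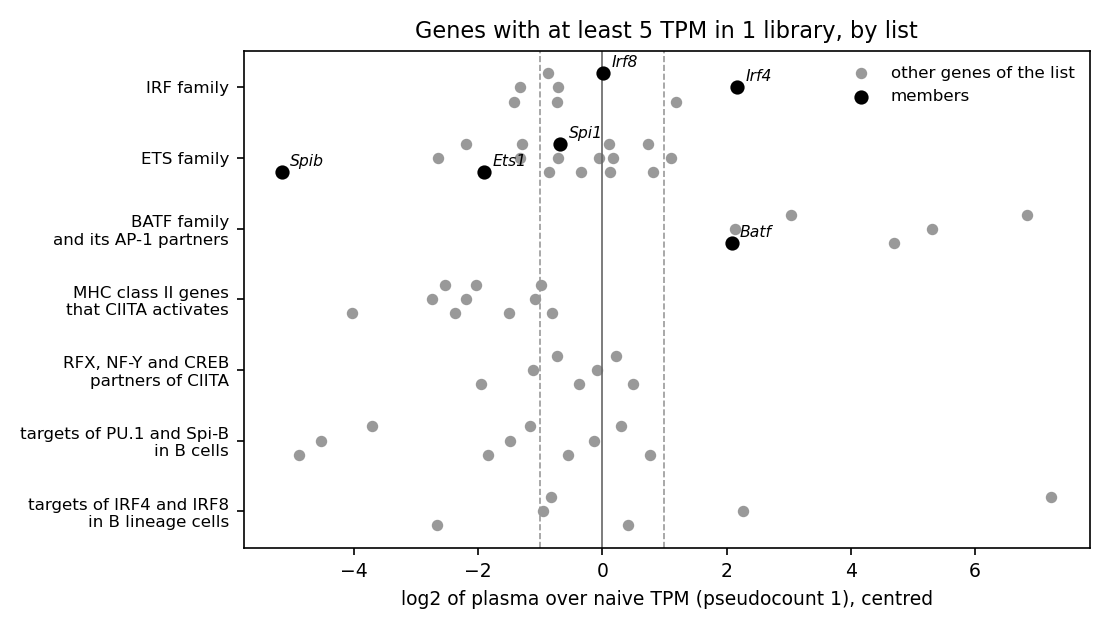
Centred log2 ratio of plasma over naive TPM (pseudocount 1) of each listed gene with at least 5 TPM in 1 library. Black points are members, and dashed lines mark the 2-fold limit. All 6 points of the BATF and AP-1 list lie above the upper line, while 8 of 10 MHC class II genes lie below the lower one.

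Of 10 genes described as targets of PU.1 and Spi-B in B cells, 6 were called lower in plasma cells and none higher, with a median of -1.33. For this list and those below, 22.0% of all genes that met the minimum were called lower and 16.0% higher. Tlr9, the sensor of unmethylated DNA, had 0.524 TPM in plasma cells and 88.5 TPM in naive B cells. Grap2 had 1.53 TPM in plasma cells and 115 TPM in naive B cells, and Cd72, an inhibitory receptor, 21.1 and 570 TPM. P2ry10 had 17.0 TPM in plasma cells and 127 TPM in naive B cells. Blnk, Fcgr2b, Cd79a and Syk were not called. Of 6 genes under IRF4 or IRF8 in B lineage cells, Prdm1, which encodes Blimp-1, had 249 TPM in plasma cells and 2.29 TPM in naive B cells. Bcl6, the germinal centre repressor, was called lower, with 3.82 TPM in plasma cells and 59.2 TPM in naive B cells. Ikzf1, Ikzf3 and Zbtb20 were not called. Of 7 genes repressed by Blimp-1, 5 were called lower: Spib, Ciita, Pax5 (15.7 TPM in plasma cells, 346 TPM in naive B cells), Id3 (5.18 and 77.9 TPM) and Bcl6. Myc, at 37.9 TPM in plasma cells and 63.9 TPM in naive B cells, had a centred ratio of 0.25.

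Spib was nearest in its pair of levels to Btla (10.0 TPM in plasma cells, 553 TPM in naive B cells), Rpl17-ps3 (7.74 and 483 TPM) and Siglecg (12.7 and 589 TPM), at distances of 0.36, 0.41 and 0.62 on the log2 scale over the 2 libraries. Irf4 was nearest to Dbi, Jund and Sars, within 0.11, and Irf8 to mt-Atp8, Gnb2 and Tmem123, within 0.12. With 2 libraries, such nearness says only that the levels are alike.

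The libraries held 43457786 estimated counts in plasma cells and 36995177 in naive B cells, and immunoglobulin genes took 34.8% of TPM in plasma cells and 5.03% in naive B cells. Of 6 plasma cell markers that met the minimum, 5 were called higher, against 16.0% of all genes that met it. Sdc1, which encodes the sorting marker CD138, had 5.38 TPM in plasma cells and 11.1 TPM in naive B cells, and Tnfrsf17, a marker of long-lived plasma cells, 1.68 and 2.24 TPM in that order. All 5 cycling markers were called higher, against the same 16.0%, with a sum of 466 TPM in plasma cells and 74.9 TPM in naive B cells. Of 7 naive B cell markers found, all of which met the minimum, 6 were called lower, against 22.0% of all genes that met it. Of 6 erythroid and platelet markers, 4 met the minimum and all 4 were called lower. The 6 summed to 2.29 TPM in plasma cells and 82.2 TPM in naive B cells.

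Chromatin around Irf4 was described from the authors' lists of ATAC peaks, in the window from 30600001 to 31100000 of chromosome 13 (mm9). The plasma list had 22 peaks there and the naive list 17, and both covered 39.6 kb. Of the 22 plasma peaks, 9 overlapped a naive peak (40.9%), against 66.8% over the genome. Of the 17 naive peaks, 9 overlapped a plasma peak (52.9%), against 68.7% over the genome. Among 1264 windows of 500 kb with at least 10 naive peaks, 15.7% had a share of overlapped naive peaks at or below that of the Irf4 window.

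The plasma list had no peak over Irf4 itself, while Irf4 RNA was higher in the plasma RNA library. The labels of that RNA library disagree, so both plasma libraries may be of different cells, and the cause was not tested. From 30823040 to 30926094, a stretch of 103 kb that spans the approximate position of the gene (30840001 to 30860000), no plasma peak was listed, while the naive list had 6 peaks with scores from 66.8 to 663. The scores are the authors' own and rank peaks within a list only. Of the 6, 3 lay at the gene: 30840050 to 30845273 (5224 bases, score 288), 30850797 to 30854537 (3741 bases, score 210) and 30857286 to 30862594 (5309 bases, score 66.8). The highest of the 6, at 30877124 to 30879224, lay 38.2 kb past the approximate start and scored above 86.4% of naive peaks. Of 30310 stretches between neighbouring plasma peaks, 153 (0.505%), the Irf4 one included, held at least 6 naive peaks. Of these 153, 3 were no longer than the Irf4 one, which is itself among the 3. Wide naive peaks usually had a plasma partner: of 399 naive peaks of at least 5000 bases, 86.2% were overlapped.

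The plasma peaks lay upstream instead. Before the gene the plasma list had 15 peaks, 11 of them with no naive partner, and the naive list 7, 3 of them with no plasma partner. With centres from -68.9 to -17.8 kb of the approximate start, 6 plasma peaks had no naive partner, and the highest, at 30806280 to 30808644, had a score of 412, above 66.1% of plasma peaks. The highest peak in the window was shared: 30750780 to 30753531 in plasma cells (score 593) and 30750909 to 30753068 in naive B cells (score 831), with centres at -87.8 and -88.0 kb of the approximate start. Past the gene each list had 7 peaks, of which 2 in each had no partner.

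**Figure D3:**
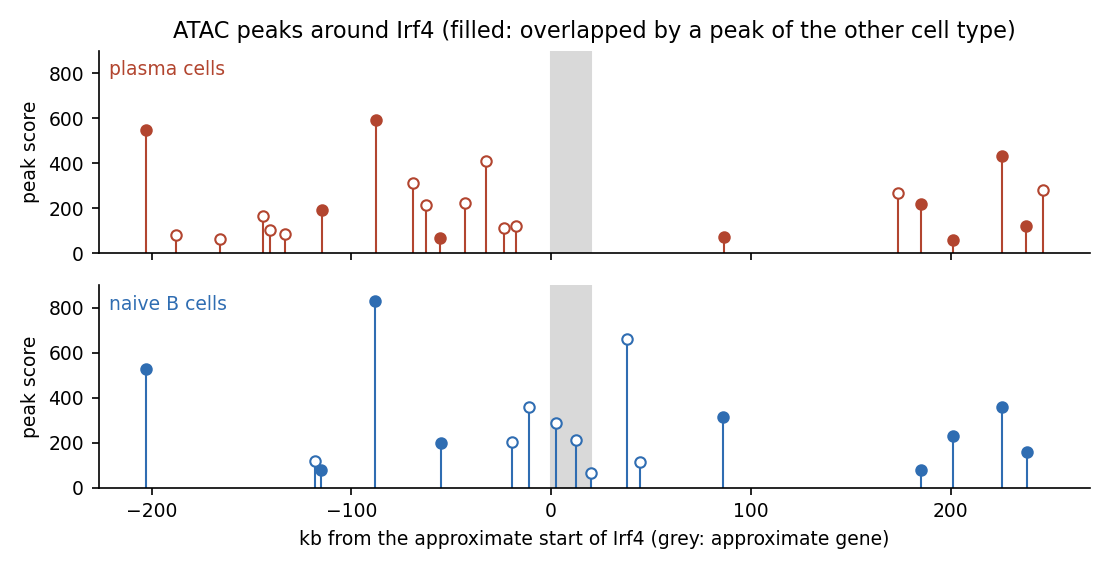
ATAC peaks of plasma cells (top) and naive B cells (bottom) by distance in kb from the approximate start of Irf4, with the authors' peak score as height and the approximate gene in grey. Filled points are overlapped by a peak of the other cell type. No plasma point falls over the gene, where 3 open naive points stand, and 6 open plasma points stand from -68.9 to -17.8 kb.

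The other 6 members had 30 naive peaks, of which 22 (73.3%) were overlapped by plasma peaks, near the genome share of 68.7%. With 20 kb on each side of approximate gene positions, all naive peaks were overlapped by plasma peaks at Irf8 (4 of 4), Spib (3 of 3), Spi1 (4 of 4) and Batf (3 of 3). Ciita kept 4 of 7 naive peaks and Ets1 4 of 9. Plasma peaks numbered 5 at Irf8, 4 at Spib, 4 at Spi1, 9 at Ets1, 5 at Batf and 4 at Ciita. Spib thus had a plasma peak at each of its naive peaks, although its RNA was at 0.0125 times the naive TPM. At Prdm1, a gene with higher RNA in plasma cells, 1 of 3 naive peaks was overlapped, and the plasma list had 1 peak. Other loci went both ways in the length covered by peaks. It was 6.99 kb in plasma cells and 12.7 kb in naive B cells at Ell2. In the same order it was 17.9 and 6.03 kb at Xbp1, 44.6 and 32.7 kb at Bach2 and 46.6 and 30.0 kb at Ebf1.

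Contacts of Irf4 were read from the row of the 2 Mb bin 30000001 to 32000000 of chromosome 13 in both balanced maps, in which every bin has the same row sum. Contacts with other chromosomes made up 21.1% of the row in plasma cells and 23.5% in naive B cells, a difference of -2.39 percentage points. The median over 1286 bins was 19.7% in plasma cells and 24.2% in naive B cells, and the share was lower in plasma cells for 90.8% of bins. The Irf4 bin differed less than most: 72.2% of bins had a larger drop. From the recovered read pairs the share was 19.2% (19.0 to 19.5) in plasma cells and 22.3% (22.0 to 22.6) in naive B cells.

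Within its chromosome the Irf4 bin had a larger share of contacts inside the bin and at 2 Mb in plasma cells. The share was smaller in the bands of 4 to 20, 22 to 60 and 62 to 90 Mb. Single distances below 26 Mb went both ways. The mean contact was 18.64 in plasma cells and 21.89 in naive B cells at 4 Mb, but 11.46 and 9.825 at 18 Mb. From 26 Mb on it was lower in plasma cells at every distance. Contacts inside the bin were 38.9% of the row in plasma cells and 31.3% in naive B cells, a gain of 7.60 points, larger than in 87.9% of bins, whose median gain was 4.61 points. Contacts at 2 Mb were 12.0% in plasma cells and 10.4% in naive B cells, where all bins averaged 9.89% and 7.63% in that order. Contacts at 4 to 20 Mb were 17.7% in plasma cells and 18.4% in naive B cells, the opposite order to the average over all bins, 19.2% in plasma cells and 16.1% in naive B cells. Contacts at 22 to 60 Mb were 8.58% in plasma cells and 11.0% in naive B cells, where all bins at those distances averaged 11.9% and 12.8% in that order. Contacts at 62 to 90 Mb were 1.66% in plasma cells and 5.31% in naive B cells, close to the averages of 1.87% and 4.90% over all bins.

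With single loci on other chromosomes, the Irf4 bin gave few differences beyond counting error. A contact is given here relative to the mean contact between chromosomes of its map. Scaled to equal row sums in place of that mean, every log2 ratio between chromosomes is shifted by -0.28. Of the bins of 18 loci, placed at approximate mm9 positions, 13 had a higher value in plasma cells, against 53.4% of the bins in the Irf4 row and 50.0% of 783071 pairs of bins. The interval of the ratio lay above 0 for 1 locus and below 0 for none. That locus was Xbp1, which encodes a driver of the secretory programme: 3.34 (2.48 to 4.40) in plasma cells and 1.94 (1.34 to 2.71) in naive B cells, from 50 and 34 read pairs. Its log2 ratio was 0.78, with an interval from 0.13 to 1.46, and 81.9% of the Irf4 row had a smaller ratio. Scaled to equal row sums, its log2 ratio was 0.50 with an interval from -0.16 to 1.17, which holds 0, and 8 of the 18 loci were higher in plasma cells. Of the Irf4 row, 99.6% lay below the Xbp1 bin in plasma cells and 93.4% in naive B cells. In the 1 Mb interaction lists, the bin that pairs with Irf4 there is 4000001 to 5000000 of chromosome 11, with 22 read pairs in plasma cells and 18 in naive B cells and listed in both, while Xbp1 itself lies past that bin.

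The bin of Prdm1 had 1.85 (1.20 to 2.73) in plasma cells and 1.29 (0.779 to 2.02) in naive B cells. Atf4, a stress response factor, had 1.71 (1.12 to 2.51) in plasma cells and 0.981 (0.571 to 1.57) in naive B cells. Bach2, a repressor of plasma cell fate, had 1.77 (1.16 to 2.59) in plasma cells and 2.68 (1.94 to 3.60) in naive B cells. The interval of the ratio held 0 for each of these loci, but on the scale of equal row sums that of Bach2 lay below 0, at -0.88 (-1.64 to -0.14). With the other 6 members the Irf4 bin had 2.31 (Ciita), 2.03 (Ets1), 1.69 (Batf), 1.19 (Irf8), 1.09 (Spi1) and 0.434 (Spib) in plasma cells. In naive B cells the values were 2.25 for Ciita, 1.80 for Ets1, 1.49 for Batf, 1.01 for Irf8, 0.648 for Spi1 and 0.602 for Spib. Every interval of these 6 ratios held 0 on both scales.

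**Figure D4:**
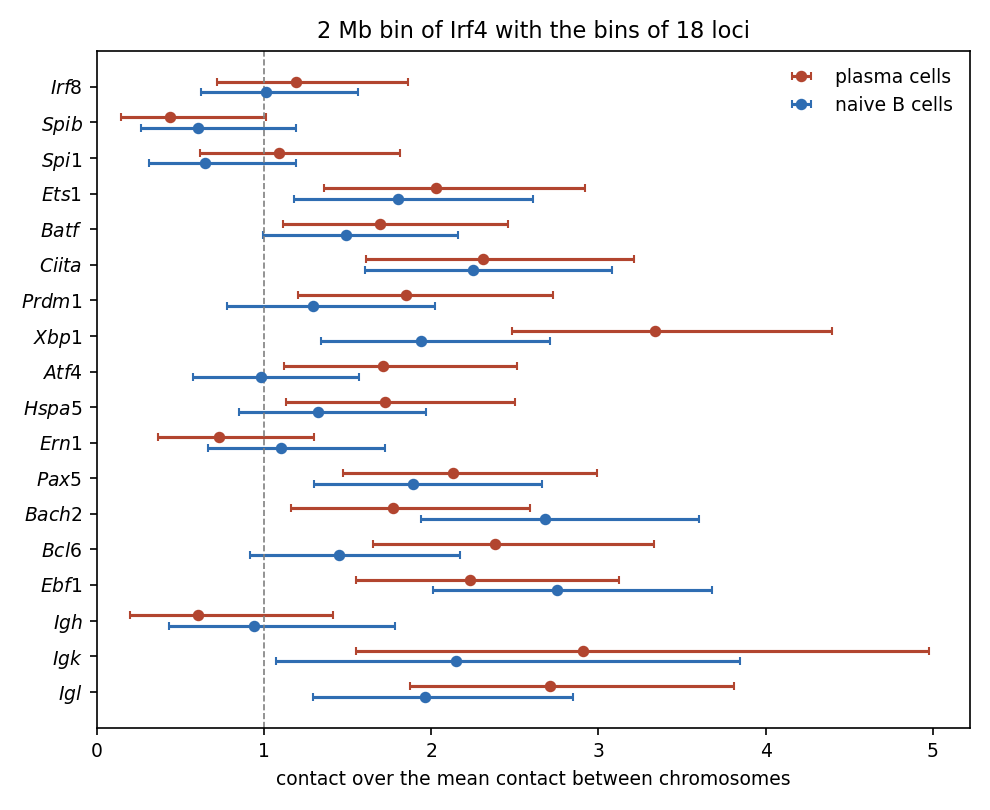
Contact of the Irf4 bin with the bins of 18 loci, relative to the mean contact between chromosomes (dashed line at 1), for plasma cells (upper point of each pair) and naive B cells (lower), with 95% Poisson intervals on the read pairs. The plasma and naive intervals overlap at all 18 loci, and Xbp1 has the highest plasma value, 3.34.

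Over the whole row of 1226 bins on other chromosomes, 10.9% passed 2-fold upward in plasma cells and 8.89% downward, against 13.0% and 12.7% of all pairs of bins. The 5 largest gains and 5 largest losses rested on 0 or 1 read pair in 1 of the maps, as at 12000001 to 14000000 of chromosome 7, with 11 read pairs in plasma cells and 1 in naive B cells, and at 142000001 to 144000000 of chromosome 6, with 1 in plasma cells and 20 in naive B cells. Of the 50 strongest partners in each map, 9 were shared. The strongest partner in plasma cells was the start of chromosome 19 (2000001 to 4000000), at 4.19 (2.88 to 5.88) in plasma cells and 1.34 (0.692 to 2.34) in naive B cells. The strongest in naive B cells was 14000001 to 16000000 of that chromosome, at 2.67 (1.86 to 3.71) in plasma cells and 3.46 (2.57 to 4.56) in naive B cells.

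By chromosome, the Irf4 bin had a higher plasma over naive ratio than the mean of all bins of chromosome 13 for all 19 partners. Against all bins outside the partner chromosome it was lower for chromosomes 1 (0.04 against 0.11), 3 (0.00 against 0.05) and 16 (-0.22 against -0.13). For the other partners it was higher. The share of those bins with a smaller ratio than the Irf4 bin ran from 32.5% for chromosome 16 to 90.1% for X. Chromosome X stood highest, with 0.721 times the mean in plasma cells and 0.498 times in naive B cells, and a log2 ratio of 0.54 (0.31 to 0.76). All bins of chromosome 13 together had a log2 ratio of 0.10 with X, and 90.1% of bins elsewhere had a smaller ratio with X than the Irf4 bin. Chromosome 16 was lower, at -0.22 (-0.36 to -0.09), against -0.30 for chromosome 13 as a whole. Chromosome 10, which holds Prdm1, had 0.31 (0.17 to 0.45). On the scale of equal row sums X had 0.25 (0.03 to 0.48) and chromosome 10 had 0.02 (-0.12 to 0.16), and the other 17 chromosomes were lower in plasma cells.

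**Figure D5:**
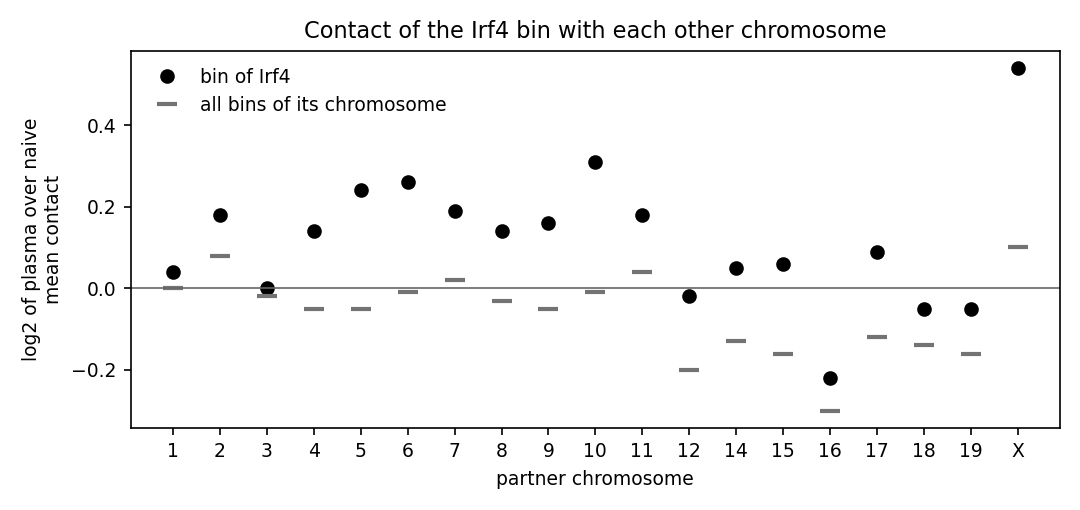
Log2 ratio of plasma over naive mean contact between the Irf4 bin and each other chromosome (points), with the same ratio for all bins of chromosome 13 (dashes). All 19 points lie above their dashes, and the point of chromosome X is the highest, at 0.54.

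In the authors' lists of 1 Mb interactions, the bin 30000001 to 31000000 had 63 partners on other chromosomes in plasma cells and 37 in naive B cells, with 8 to 22 read pairs in plasma cells and 11 to 21 in naive B cells. The median bin had 20.0 partners in plasma cells and 17.0 in naive B cells. Only 5 partners were on both lists, 7.94% of the plasma list and 13.5% of the naive list, against 31.7% and 30.8% over all listed pairs. Bins listed as partners in 1 map mostly had read pairs in the other. The top plasma partner, 29000001 to 30000000 of chromosome 17, had 22 read pairs in plasma cells and 7 in naive B cells, against 4.42 expected by the authors in plasma cells. The top naive partner, 44000001 to 45000000 of chromosome 11, which holds Ebf1, had 9 in plasma cells and 21 in naive B cells, against 5.05 expected in naive B cells. Partners that hold a locus named here were those of Ets1, Hspa5 and Igl in plasma cells and those of Ebf1 and Bach2 in naive B cells.

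Between the 7 member bins, 11 of 21 pairs had a higher contact in plasma cells and 10 a lower one, against 50.0% of all pairs of bins. Their median contact was 1.69 times the mean in plasma cells and 1.47 times in naive B cells, where all pairs had medians of 0.830 and 0.857 in that order. The interval of the ratio lay below 0 for 2 pairs and above 0 for none. On the scale of equal row sums 7 pairs were higher and 14 lower, and the interval of Irf8 and Ciita also lay below 0, at -0.72 (-1.38 to -0.08). Batf and Ciita had the highest value of all 21 pairs in naive B cells: 2.21 (1.54 to 3.07) in plasma cells and 4.48 (3.59 to 5.54) in naive B cells, from 35 and 86 read pairs, with a log2 ratio of -1.02 (-1.63 to -0.44). Ets1 and Batf had 0.403 (0.148 to 0.877) in plasma cells and 1.68 (1.12 to 2.43) in naive B cells, from 6 and 28 read pairs, with a log2 ratio of -2.06 (-3.63 to -0.76). Of all pairs of bins, 3.18% had a smaller ratio than Ets1 and Batf and 12.9% a smaller one than Batf and Ciita. The pair with the highest plasma value was Spi1 and Batf, at 3.49 (2.59 to 4.60) in plasma cells and 2.81 (2.07 to 3.73) in naive B cells. Irf8 and Batf had 3.06 (2.28 to 4.02) in plasma cells and 3.07 (2.38 to 3.90) in naive B cells.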

How the data were processed

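The members and the gene lists were chosen with earlier results of these data known. Named genes were all members and their transcripts of at least 1 TPM, IRF and ETS genes of at least 5 TPM, up to 4 genes with the largest change in each other list that is not of markers, and the nearest genes over both libraries. A gene outside that rule, such as one of a list that was not called, was named after its values were seen. Expression was deposited as kallisto output: estimated counts for each transcript beside its TPM. The deposited ATAC lists give a score for every peak from the authors' caller. The signal in the deposited contact maps was balanced beforehand (Knight-Ruiz). Deposited interaction lists give a count of read pairs, expected reads and a Z-score per pair of 1 Mb bins, per the file headers. The submitters' processing notes name the build mm9 and, as tools, kallisto, MACS 1.4, HOMER, Bowtie, TopHat and Picard. No filter or pooling step is stated in the sources used here.

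Transcripts were summed per symbol. Estimated counts were rounded for exact Clopper-Pearson intervals (95%); no molecular identifiers are given, so reads can be copies of 1 molecule. Of 141 list entries, 139 were found, 8 symbols of them under an older symbol matched by gene ID. ATAC depth is unknown. Peaks overlapped at 1 base or more. Map bins carry no names: chromosomes were set off by their empty first bins. A bin needed 0.5 of the median number of nonzero entries. Whole read pairs were worked back from the smallest values of the 500 kb maps: 99.95% of entries between chromosomes in plasma cells and 99.93% in naive B cells were within 0.05 of whole, and the sums differed from the deposited counts for 0 of 50635 listed pairs in plasma cells and 1 of 52161 in naive B cells. Ratios with a pseudocount used 0.1 of the mean contact. Positions of loci in mm9 are approximate and from general knowledge, since the reference is of another build. TMM factors came from edgeR 4.0.16. Scripts were tested on simulated data. 1 listed gene is not reported here.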

Additional observations from a re-analysis of the deposited data

How the results depend on the processing

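The calls of Irf4 and Batf as higher and of Spib, Ets1 and Ciita as lower held under all 7 alternatives for RNA: pseudocounts of 0.1 and 5 TPM, no centring, CPM with TMM factors, TPM without immunoglobulin genes, no minimum and protein-coding transcripts. Lifting the minimum could not change these calls, because all 7 members met it, and protein-coding transcripts moved only Spib, to -5.17. Across all 8 settings Irf4 ranged from 1.19 to 2.58, Batf from 1.09 to 2.38, Spib from -6.15 to -4.79, Ets1 from -2.90 to -1.52 and Ciita from -4.14 to -2.83. Irf8 ranged from -0.98 to 0.36 and was below 0 without centring and at -0.12 with a pseudocount of 5 TPM. Spi1 ranged from -1.67 to -0.40 and was called lower without centring only. Entries of the lists that are not of markers were called higher 12 times and lower 33 times, against 10 and 51 without centring and 15 and 28 with TMM. Of all calls, 42.1% were higher, against 11.9% without centring, 56.8% with TMM, 52.8% with a pseudocount of 5 TPM and 60.8% with no minimum. Genes called lower numbered 2242, against 5870 without centring and 1234 with a pseudocount of 5 TPM. Genes called higher numbered 1628, against 790 without centring and 3671 with no minimum. Without a minimum, genes near 0 TPM in both libraries enter, and centring places them near 0.99. The median ratio over the 26434 genes of that setting was 0.86. Spdef, at 0.0142 TPM in plasma cells and 0 in naive B cells, is called higher there at 1.01. Of 17 naive peaks in the Irf4 window, 9 were overlapped, against 4 of 14 with scores of at least 100 in both lists and 4 of 12 in a narrower window; both alternatives hold fewer peaks by construction. The number of member pairs with a higher contact was 11, against 7 in the 500 kb bins that hold the genes, where the cause was not tested, and 7 with maps scaled to equal row sums, a scaling added after seeing the data that shifts every ratio by -0.28. The lower share of contacts with other chromosomes of the Irf4 bin was -2.62 points in 500 kb bins, and the scaling of the maps does not enter it. For 9 loci, all 18 alternative values moved by no more than the wide counting error of the ratio, although Spib had -1.95 in 500 kb bins, against -0.40. Equal row sums took the interval of Xbp1 (-0.16 to 1.17) across 0 and that of Bach2 (-1.64 to -0.14) off 0. No paired analysis was possible because each assay has 1 library per cell type, and no replicate could be left out. Depth limits the contacts: pairs of bins held 5 to 86 read pairs among the members.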

Other observations

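In the 500 kb bins that hold the genes, Irf4 and Xbp1 shared 6 read pairs in plasma cells and 3 in naive B cells, Irf4 and Prdm1 7 in plasma cells and 3 in naive B cells, and Irf4 and Atf4 3 in plasma cells and 6 in naive B cells. The order of the last pair was opposite to that in the 2 Mb bins, where Irf4 and Atf4 had 26 read pairs in plasma cells and 17 in naive B cells.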
